A study of Homo sapiens with 11 samples.

Results

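The epidermal growth factor receptor EGFR and 5 of its ligands, HBEGF, AREG, EREG, TGFA and BTC, were followed across 11 Affymetrix HG-U133 Plus 2.0 arrays of MDA-MB-231, a human breast cancer line that is triple-negative, which means that it lacks appreciable estrogen receptor alpha, progesterone receptor and HER2 amplification. A gene was read by the probe sets that the platform annotation ties to its symbol and to no other. Under this rule 5 of the 6 genes, EGFR and 4 ligands, had 20 of the 54675 probe sets, and they are 5 of the 19775 genes that the arrays measured. EGFR had 9 probe sets, HBEGF 4, TGFA 3, EREG 2 and BTC 2. AREG was not analysed here, because no probe set met the rule for it.

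Charcoal-stripped serum, which is low in steroid hormones, was given for 4 h before a treatment of 3 h. The treated groups were E2-BSA at 1 µM (2 arrays), E2-BSA at 1 µM with ICI at 10 µM, E2-BSA at 1 µM with G15 at 10 µM, ICI alone at 10 µM, G15 alone at 10 µM and estradiol at 1 µM. The carrier protein BSA at 1 µM and the vehicle ethanol at 0.1% had an array of their own, and the untreated control had 2 arrays. Each group without a stated number had 1 array. E2-BSA is estradiol linked to the protein bovine serum albumin and is used to reach receptors on the outside of the cell, while free estradiol also enters it. G15 blocks GPER, an estrogen receptor coupled to G proteins. ICI is named only by that abbreviation in the labels and is called an antagonist here. Whether it acts on GPER in these cells, and in which direction, was not tested. The labels did not state whether the estradiol array also received ethanol, or whether the duplicates came from separate cultures. All groups were of the same cell line, and p-values measure only the spread between these arrays.

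EGFR is a receptor tyrosine kinase that dimerises when a ligand binds and signals through RAS and ERK to early response genes. Its ligands are made as membrane-bound precursors and released by metalloproteases of the ADAM family, so that a G protein-coupled receptor can activate EGFR through the shedding of a ligand, a route called transactivation and proposed for GPER. HBEGF and TGFA also belong to the genes that growth factor signalling itself can raise, which makes their transcripts a readout of the pathway as well as a part of it. The shedding step itself is not measured by an expression array.

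The promoters of HBEGF, EREG and TGFA are shown because HBEGF had the largest differences between treatments among the members, and EREG and TGFA the largest between the 2 sets of arrays described below. Each sequence covers the 250 bases before a start of the gene in RefSeq, build GRCh38.p14, 5′ to 3′ on the gene's strand, at chr5:140346604-140346853 (minus strand) for HBEGF, at chr4:74364895-74365144 (plus strand) for EREG and at chr2:70553827-70554076 (minus strand) for TGFA. Capitals mark matches to the motifs searched.
HBEGF: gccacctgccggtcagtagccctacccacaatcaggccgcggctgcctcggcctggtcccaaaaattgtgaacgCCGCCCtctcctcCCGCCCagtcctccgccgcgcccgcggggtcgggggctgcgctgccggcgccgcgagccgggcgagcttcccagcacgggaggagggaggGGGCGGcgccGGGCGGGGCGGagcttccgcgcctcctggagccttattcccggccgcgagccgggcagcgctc
EREG: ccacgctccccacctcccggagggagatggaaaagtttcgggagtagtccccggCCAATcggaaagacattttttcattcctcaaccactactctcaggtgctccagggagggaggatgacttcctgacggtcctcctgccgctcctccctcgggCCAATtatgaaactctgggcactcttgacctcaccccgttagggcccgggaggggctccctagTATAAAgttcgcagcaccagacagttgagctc
TGFA: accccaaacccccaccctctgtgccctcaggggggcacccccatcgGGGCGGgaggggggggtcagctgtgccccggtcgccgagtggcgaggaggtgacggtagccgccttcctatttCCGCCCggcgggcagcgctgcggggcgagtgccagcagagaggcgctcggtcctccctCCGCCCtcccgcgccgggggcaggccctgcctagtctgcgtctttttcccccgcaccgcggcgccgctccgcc
The motifs searched on both strands were GGGCGG for the GC box, TATAAA for the TATA box, CCAAT for the CCAAT box, TGACGTCA for the full cyclic AMP response element and its first part TGACGT, and TGAGTCA for the AP-1 element. The HBEGF window held 5 GC box matches, at -73, -63 and -58 on the gene's strand and at -176 and -163 on the opposite strand. The matches at -63 and -58 overlap by 1 base. The EREG window held TATAAA at -32 and CCAAT at -196 and -95, and the TGFA window held a GC box match at -204 on the gene's strand and matches at -131 and -73 on the opposite strand. Positions count back from the last base before the start used. Another TGFA window in RefSeq, at chr2:70553447-70553696, held no match to the motifs and is not shown. Of 35116 RefSeq promoter windows of the same length, 42.6% held a GC box match, 10.7% TATAAA, 32.0% CCAAT, 1.65% TGACGTCA, 7.1% TGACGT and 4.2% TGAGTCA. These matches describe the letters and say nothing of a factor's binding in these cells.

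The deposited values were log2 values relative to a centre of each probe set, so they give differences between arrays and no level of expression. A value of 0 in EGFR and a value of 0 in BTC are therefore not the same amount of RNA, and the cell line label could not be checked by its marker genes. From bulk RNA, fewer cells and less RNA per cell cannot be told apart. The 24 probe sets of the poly-A spike-in controls, RNAs added in the Affymetrix labelling protocol, parted the arrays into a set of 3 (estradiol, E2-BSA 1 and control 1, mean log2 values of 1.40 to 1.62) and a set of 8 (-0.56 to 0.10). The gap between the sets was 1.30, against a next largest gap of 0.39. No label names a batch, and the set of 3 holds no BSA, ethanol or antagonist array. The median of all genes lay between -0.07 (control 2) and 0.10 (BSA), and the ACTB 3′ minus 5′ difference between -0.31 (control 1) and 0.35 (BSA). The fit had a term for each agent and for the array set and used all 11 arrays. It assumed that groups with 1 array vary as the other arrays do around the fit. The BSA, ethanol and estradiol arrays each have a term of their own and add nothing to the residual spread. That spread has 3 degrees of freedom, against 1 in a fit with a mean for each group and the set term. Most of them therefore measure the departure of E2-BSA, ICI and G15 from additive differences. The SEs are not the spread of duplicates alone.

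No treatment changed the transcript of EGFR or of any of the 4 measured ligands past the threshold, an adjusted p of 0.05 over all 19775 genes (limma, Benjamini-Hochberg adjustment). Over 9 treatment comparisons this was 0 of 45 differences. The lowest adjusted p was 0.110, and 9 of the 45 had an unadjusted p under 0.05, of which 5 were differences of HBEGF. Over all genes the share with an unadjusted p under 0.05 was 4.69% for E2-BSA present against absent and 6.35% to 17.8% in the other 8 comparisons, with 16.1% for BSA against control, 17.8% for E2-BSA against BSA and 16.3% for ICI. Among all genes, 0.0% passed for E2-BSA present against absent, ICI present against absent, G15 present against absent, estradiol against control and E2-BSA against estradiol. The share was 0.354% for BSA against control, 0.308% for E2-BSA against BSA, 0.086% for ethanol against control and 0.0101% for estradiol against ethanol. A count of 0 among 5 members is near these shares. Without the second control array the number of genes called for BSA against control was 4, and without the second E2-BSA array it was 5, against 70 with all arrays.

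**Figure D1:**
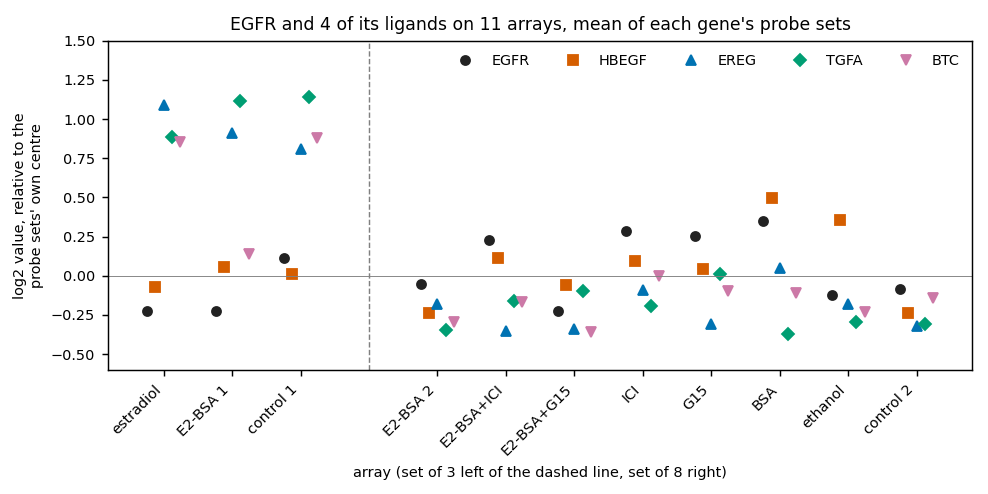
Log2 values (vertical axis, relative to the centre of each gene's probe sets) of EGFR, HBEGF, EREG, TGFA and BTC on the 11 arrays (horizontal axis), each point the mean of a gene's probe sets, with the set of 3 left of the dashed line and the set of 8 right of it. EREG and TGFA lie between 0.81 and 1.14 in the set of 3 and between -0.37 and 0.05 in the set of 8, while HBEGF is highest in BSA (0.50) and ethanol (0.36).

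HBEGF, the heparin-binding ligand that also serves as the receptor of diphtheria toxin, had its highest values in the carrier and vehicle arrays. Its mean log2 value was 0.50 in the BSA array and 0.36 in the ethanol array, against -0.23 in the control array of the same set. In the other arrays of the set of 8 it was -0.24 in E2-BSA, 0.12 in E2-BSA with ICI, -0.06 in E2-BSA with G15, 0.09 in ICI and 0.04 in G15. The BSA and ethanol arrays thus stood above all others, and E2-BSA 2 lay beside control 2. In the set of 3 the value was -0.07 for estradiol and 0.06 for E2-BSA, against 0.01 for control.

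The fitted difference of HBEGF between BSA and control was 0.73 ± 0.13 (SE, adjusted p = 0.110), where the median gene differed by 0.17 and 1.38% of all genes had a larger size. E2-BSA against its carrier BSA gave -0.74 ± 0.13 (SE, adjusted p = 0.113), and ethanol against control gave 0.59 ± 0.13 (SE, adjusted p = 0.366). None of these passed. Estradiol against ethanol differed by -0.70 ± 0.18 (SE, adjusted p = 0.460), a comparison that runs between the array sets and rests on 1 array on each side. Estradiol against control differed by -0.12, with a 95% interval of -0.42 to 0.19. The higher HBEGF of the BSA array goes with the highest median of all genes and the highest ACTB 3′ minus 5′ difference of the 11 arrays. The part of the ACTB difference in the result was not tested. The HBEGF difference with arrays centred on the median gene is not given here.

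The 4 HBEGF probe sets had the same direction for both agents. All 4 were higher in the BSA array than in control 2, by 0.20 to 1.24, and all 4 were higher in the ethanol array than in control 2, by 0.04 to 1.13. Over all genes 80.0% had a fitted difference above 0 for BSA against control, and 54.7% for ethanol against control. The smallest rises, of 222076_at in BSA and 244857_at in ethanol, lay at percentiles 53.5 and 50.6 of all probe sets. A pair of the 4 carried most of the difference. Probe set 38037_at read 0.77 in BSA and 0.66 in ethanol, against -0.47 in control 2, and probe set 203821_at read 0.65 in BSA and 0.61 in ethanol, against -0.41 in control 2. This pair followed each other closely over the 11 arrays after the set means were removed (r = 0.98). For BSA against control the fitted differences were 1.19 ± 0.18 (SE, adjusted p = 0.0547 over all probe sets) for 38037_at and 1.09 ± 0.17 (SE, adjusted p = 0.0685) for 203821_at, both just outside the threshold. For ethanol against control they were 1.08 and 1.04, with an adjusted p of 0.278 for both. The other pair, 222076_at and 244857_at, read 0.16 and 0.41 in BSA, against -0.03 and -0.02 in control 2.

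**Figure D2:**
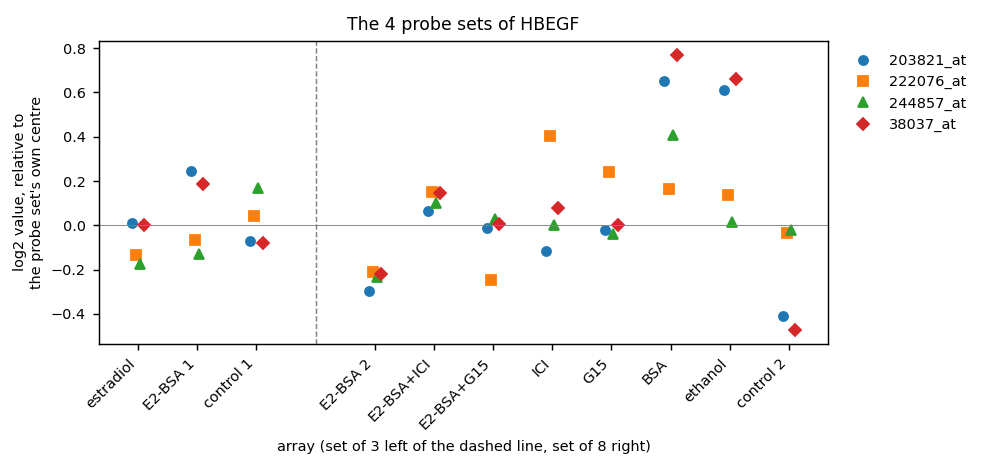
Log2 values (vertical axis, relative to each probe set's own centre) of the 4 HBEGF probe sets on the 11 arrays (horizontal axis), with the set of 3 left of the dashed line. Probe sets 203821_at and 38037_at lie between 0.61 and 0.77 in the BSA and ethanol arrays and at -0.41 and -0.47 in control 2.

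The antagonists went with smaller HBEGF differences in the same direction. ICI present against absent gave 0.34 ± 0.10 (SE, adjusted p = 0.279), with a median gene at 0.14, and G15 present against absent gave 0.23 ± 0.10 (SE, adjusted p = 0.487), with a median gene at 0.10. Neither passed. E2-BSA present against absent gave -0.01 ± 0.07 (SE, adjusted p = 0.990), with a 95% interval of -0.18 to 0.16. That fit takes the difference for E2-BSA as equal with and without an antagonist.

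EGFR, the receptor, had lower mean values in the E2-BSA and estradiol arrays of the set of 3 than in their control, while its 3 E2-BSA differences within the set of 8 ran from -0.48 to 0.03. It read -0.22 in estradiol and -0.23 in E2-BSA 1, against 0.12 in control 1. All 9 probe sets were lower in each of these treated arrays than in control 1, by 0.12 to 1.05 in E2-BSA and by 0.02 to 0.88 in estradiol. Both counts share the control 1 array, and probe sets of 1 gene on 1 array are not replicates. The smallest differences, of 201983_s_at for E2-BSA and 211607_x_at for estradiol, lay at percentiles 33.5 and 47.4 of all probe sets. The median gene differed by -0.002 in the E2-BSA pair and by -0.008 in the estradiol pair. In the set of 8 EGFR was -0.06 in E2-BSA 2 against -0.08 in control 2, 0.23 in E2-BSA with ICI against 0.28 in ICI alone, and -0.23 in E2-BSA with G15 against 0.25 in G15 alone. The 4 differences for E2-BSA were thus -0.34, 0.03, -0.06 and -0.48, and the fit over them gave -0.21 ± 0.10 (SE, adjusted p = 0.903), or -0.06 with the median of the probe sets in place of their mean. Each of these differences is 1 pair of arrays, and whether they differ between the sets was not tested.

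BSA, ICI and G15 arrays had mean EGFR values of 0.35, 0.28 and 0.25, the highest of the 11 arrays, and ethanol read -0.12. These means rest largely on probe sets 1565483_at and 1565484_x_at. Both have the same source sequence in the platform annotation, so they are not independent readings of EGFR. They read 1.53 and 1.36 in BSA, 1.18 and 1.18 in ICI, and 1.15 and 0.74 in G15. No other EGFR probe set was above 0.55 in BSA, 0.42 in ICI or 0.35 in G15. E2-BSA against BSA gave -0.53 ± 0.18 (SE, adjusted p = 0.236), BSA against control 0.31 ± 0.18 (SE, adjusted p = 0.407) and ICI present against absent 0.33 ± 0.14 (SE, adjusted p = 0.313). The same 3 arrays had medians of all genes of 0.10, 0.07 and 0.07. In the 3 comparisons above the median gene differed by -0.19, 0.17 and 0.14, in the order given. The EGFR differences with arrays centred on the median gene are not given here.

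The mean of EGFR covers probe sets that did not move together. Over the 36 pairs of its 9 probe sets, r after removal of the set means ran from -0.55 to 0.96, with a median of 0.26. The single call among the 180 probe set differences of the treatment comparisons belonged to EGFR. Probe set 201984_s_at read -1.40 in the BSA array and -0.30 in control 2, a fitted difference of -1.15 ± 0.17 (SE, adjusted p = 0.0446 over all probe sets). Among all probe sets, 0.439% were called for BSA against control, 0.368% for E2-BSA against BSA and 0.0% in each of the other treatment comparisons. The other 8 EGFR probe sets were higher in BSA than in control 2, by 0.15 to 1.40, where 80.0% of all genes had a fitted difference above 0. The smallest of these rises, of 210984_x_at, lay at percentile 46.5 of all probe sets. Probe sets 1565483_at and 1565484_x_at (r = 0.90 between them) read 1.53 and 1.36 in BSA, against 0.13 and 0.02 in control 2, with fitted differences of 1.19 ± 0.31 (SE, adjusted p = 0.322) and 1.12 ± 0.30 (SE, adjusted p = 0.330). The call of 201984_s_at rests on few arrays: its adjusted p was 0.125 within the set of 8 and 0.123 to 0.526 with 1 of the duplicate arrays left out, with differences of -1.23 to -1.11.

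**Figure D3:**
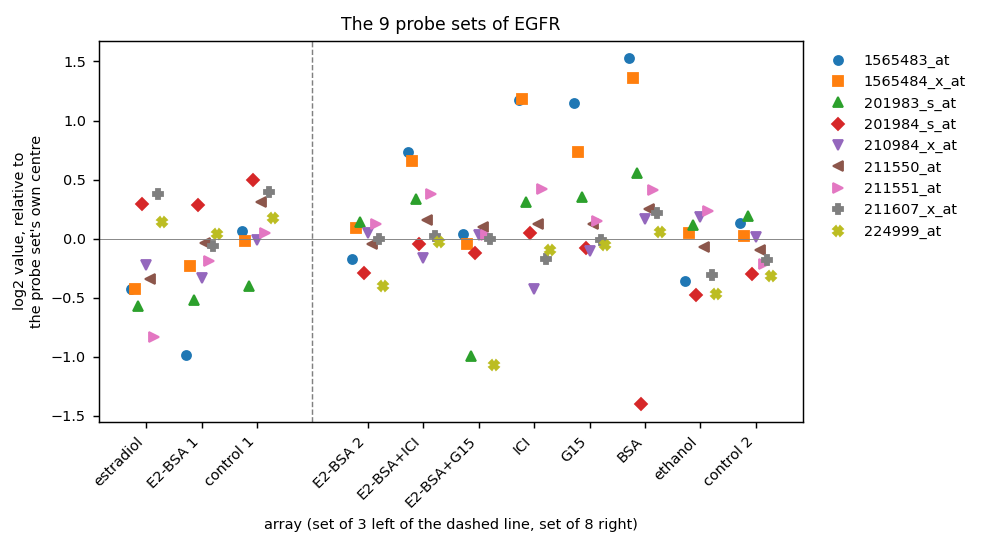
Log2 values (vertical axis, relative to each probe set's own centre) of the 9 EGFR probe sets on the 11 arrays (horizontal axis), with the set of 3 left of the dashed line. In the BSA array 201984_s_at lies at -1.40 while 1565483_at and 1565484_x_at lie at 1.53 and 1.36.

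In the E2-BSA with G15 array, 201983_s_at read -1.0 and 224999_at -1.07, against 0.35 and -0.05 in G15 alone. The remaining 7 probe sets of that array lay between -0.12 and 0.09. Among them 1565483_at and 1565484_x_at read 0.04 and -0.04, against 1.15 and 0.74 in G15 alone, differences of -1.11 and -0.78. Probe sets can target different parts or isoforms of a transcript, and the files do not give their target positions, so which part of EGFR each one reads was not determined.

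Epiregulin (EREG), a ligand of EGFR and ERBB4, showed no call in any treatment comparison. It read -0.18 in E2-BSA 2, -0.36 in E2-BSA with ICI, -0.34 in E2-BSA with G15, -0.09 in ICI, -0.31 in G15, 0.05 in BSA and -0.18 in ethanol, against -0.32 in control 2. In the set of 3 it read 1.09 in estradiol and 0.91 in E2-BSA 1, against 0.81 in control 1. The fit gave -0.01 ± 0.09 for E2-BSA present against absent and 0.29 ± 0.17 for BSA against control (SE, adjusted p = 0.990 and 0.400). The higher BSA value came mainly from probe set 205767_at, which read 0.16 in BSA and -0.47 in control 2.

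TGFA, transforming growth factor alpha, was also without a call. Its mean was -0.35 in E2-BSA 2, -0.16 in E2-BSA with ICI, -0.09 in E2-BSA with G15, -0.19 in ICI, 0.01 in G15, -0.37 in BSA and -0.29 in ethanol, against -0.31 in control 2. It was 0.88 in estradiol and 1.11 in E2-BSA 1, against 1.14 in control 1. G15 present against absent gave 0.29 ± 0.11 (SE, adjusted p = 0.482), its largest treatment difference, which was -0.44 without the term for the array sets, and E2-BSA present against absent gave -0.03 ± 0.08 (SE, adjusted p = 0.964). The lower estradiol mean rests on 1 of the 3 probe sets, 205015_s_at, at 0.23 in estradiol against 1.02 in control 1, while 205016_at read 2.12 and 2.16 in the same arrays.

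BTC, betacellulin, had a lower mean with E2-BSA in each of the 4 pairs of arrays, although 1 of its 2 probe sets, 207326_at, was higher by 0.16 in E2-BSA 2 than in control 2. It read 0.14 in E2-BSA 1 against 0.88 in control 1, -0.29 in E2-BSA 2 against -0.14 in control 2, -0.17 in E2-BSA with ICI against -0.004 in ICI alone, and -0.36 in E2-BSA with G15 against -0.10 in G15 alone. The differences were -0.74, -0.15, -0.17 and -0.26. The fitted difference of -0.33 ± 0.11 (SE) had an adjusted p of 0.903 and did not pass, and 1.73% of all genes had a larger size. Without control 1 or without E2-BSA 1 it was -0.19, and without control 2 or E2-BSA 2 it was -0.39. BTC read -0.11 in BSA and -0.23 in ethanol, both near control 2, and 0.85 in estradiol, near control 1.

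E2-BSA and free estradiol, the conjugated and the free form of the same hormone, were compared at the same dose and time. In this pair, 0 of the 5 measured members differed past the threshold, with p-values adjusted over all genes. The fitted E2-BSA minus estradiol difference was -0.51 (95% interval -0.97 to -0.05, adjusted p = 0.594) for BTC, -0.24 (-0.63 to 0.15) for EREG, 0.23 (-0.10 to 0.55) for TGFA, 0.11 (-0.20 to 0.41) for HBEGF and 0.06 (-0.36 to 0.48) for EGFR. These intervals still allow differences of up to 0.41 (HBEGF) to 0.97 (BTC) in size, so they do not show that the compounds act alike. Estradiol had a single array. The BTC difference was -0.17 without E2-BSA 1 and -0.71 without control 1.

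An antagonist could only be set against E2-BSA through single arrays. In a fit with a mean for each group and a term for the array set, which leaves 1 residual degree of freedom, no interaction of E2-BSA with ICI or with G15 passed for any of the 5 members (lowest adjusted p = 0.677), where 0.0% of all genes were called for ICI and 0.0101% for G15. The largest were -0.38 for EREG with ICI (95% interval -0.88 to 0.11) and -0.32 for EGFR with G15 (-0.87 to 0.22).

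**Figure D4:**
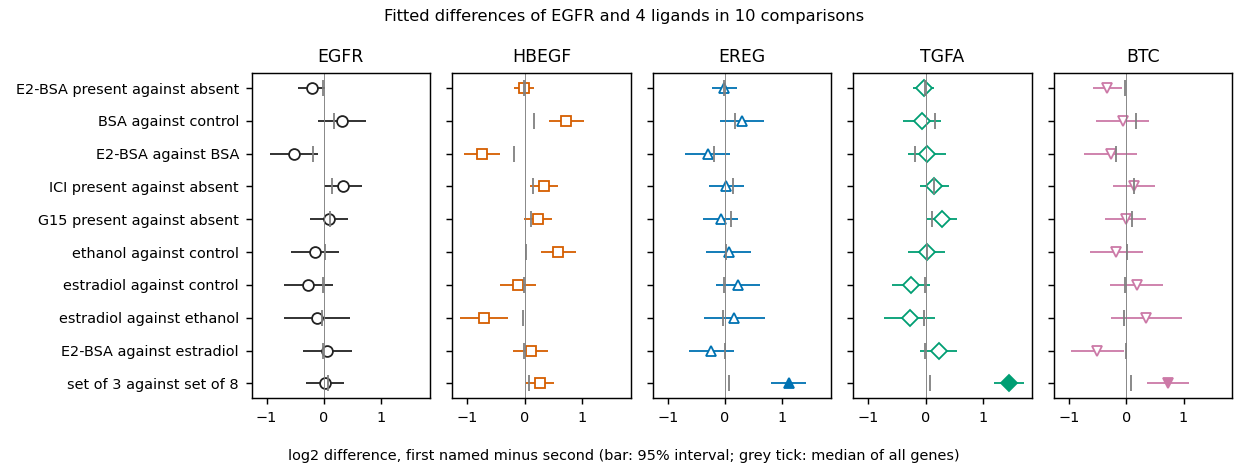
Fitted log2 differences (horizontal axis, first named group minus second) of EGFR, HBEGF, EREG, TGFA and BTC in 10 comparisons (rows), with 95% intervals as bars and the median of all genes as a grey tick. Filled symbols passed an adjusted p of 0.05, which happened only between the array sets, for EREG (1.11), TGFA (1.45) and BTC (0.73).

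The array sets parted 3 of the 5 members by more than any of their fitted treatment differences. In the set of 3 against the set of 8, TGFA was higher by 1.45 ± 0.11 (SE, adjusted p = 3.71e-04), EREG by 1.11 ± 0.13 (SE, adjusted p = 0.00114) and BTC by 0.73 ± 0.16 (SE, adjusted p = 0.0130). The lowest TGFA, EREG and BTC values of the set of 3, 0.88, 0.81 and 0.14, lay above the highest of the set of 8, 0.01, 0.05 and -0.004. The share of all genes without overlap between the sets was not determined. HBEGF (0.27 ± 0.10 SE, adjusted p = 0.0973) and EGFR (0.01 ± 0.14 SE, adjusted p = 0.953) did not pass. Among all genes, 24.1% were called between the sets, 14.1% higher and 10.0% lower. The call of BTC was lost without control 1 (0.46, adjusted p = 0.0526), without control 2 (0.61, adjusted p = 0.140) and without E2-BSA 2 (0.85, adjusted p = 0.0684). Since the estradiol array lies in the set of 3 and the ethanol array in the set of 8, a treatment cannot be read from these 2 arrays alone.

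Not every probe set of a ligand parted the sets. Of the 20 probe sets 5 were called, where 20.7% of all probe sets were: TGFA 205016_at (2.26) and 205015_s_at (1.67), EREG 205767_at (2.26), BTC 241412_at (1.15) and EGFR 201984_s_at (0.69). EREG 205767_at read 2.26, 1.99 and 1.61 in estradiol, E2-BSA 1 and control 1, against -0.70 to 0.16 in the set of 8. The other EREG probe set, 1569583_at, differed by -0.05 between the sets, TGFA 211258_s_at by 0.43 and BTC 207326_at by 0.31, none of them called. Without control 2 or without E2-BSA 2 the count of called probe sets was 3, with those of EGFR and BTC lost.

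**Figure D5:**
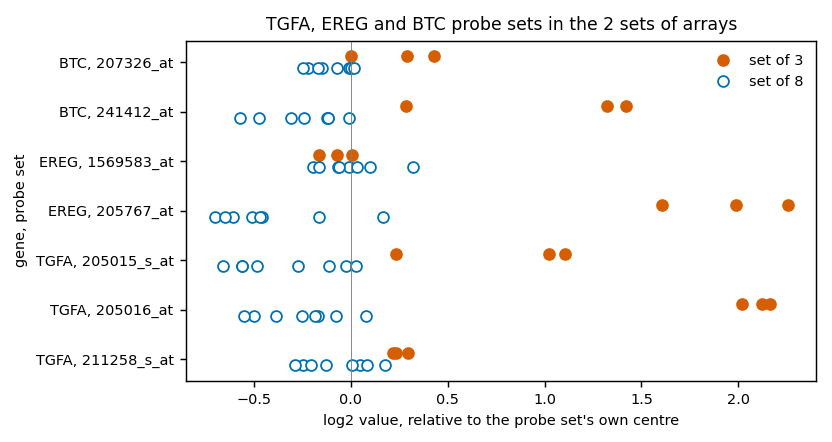
Log2 values (horizontal axis, relative to each probe set's own centre) of the 7 probe sets of BTC, EREG and TGFA (rows), with filled points for the set of 3 and open points for the set of 8. Probe sets 205767_at of EREG and 205016_at of TGFA lie between 1.61 and 2.26 in the set of 3 and between -0.70 and 0.16 in the set of 8, while the points of 1569583_at of EREG overlap.

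The genes whose pattern over the 11 arrays was most like that of HBEGF, the member with the widest range in the set of 8, were sought among 759 genes with a set-centred SD of at least 0.3. They were MAFF (r = 0.95), IRF1 (r = 0.90), CDKN1A (r = 0.88), NFKBIA (r = 0.87) and NFKBIE (r = 0.87), after removal of the set means. MAFF is a small basic leucine zipper factor, IRF1 an interferon-responsive transcription factor, CDKN1A the cell cycle inhibitor p21, and NFKBIA and NFKBIE are inhibitors of NF-κB. Without the arrays of BSA and E2-BSA 2, which lay farthest from the HBEGF median, r over 9 arrays was 0.91 for MAFF, 0.93 for IRF1, 0.88 for CDKN1A, 0.84 for NFKBIA and 0.76 for NFKBIE. The 9 arrays keep ethanol and control 2, at 0.36 and -0.23 for HBEGF, and the 5 genes were picked as the highest of 759 on all 11 arrays. The r over 9 arrays is therefore no separate check, and the values share arrays and scaling. IRF1 read 0.79 in BSA and -0.26 in ethanol, against -1.38 in control 2, and CDKN1A read 0.57 in BSA and 0.93 in ethanol, against -0.34 in control 2.

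The other genes of the pathway were read from 8 lists of 113 genes, of which 101 were measured: other ERBB receptors and ligands, shedding, adaptors, the RAS to ERK cascade, inhibitors and turnover, early response targets, and GPER with transactivation. None of the 101 passed for E2-BSA present against absent, ICI or G15 present against absent, estradiol against control or E2-BSA against estradiol. For BSA against control 2 rose and 0 fell, both early response targets, where 0.354% of all genes were called. JUNB, an AP-1 subunit, read 1.11 in BSA, against -0.29 in control 2 (fitted difference 1.40 ± 0.19 SE, adjusted p = 0.0305). LIF, a cytokine of the interleukin-6 family, read 0.61 in BSA, against -0.43 in control 2 (1.0 ± 0.13 SE, adjusted p = 0.0280). In the same comparison the median of the 22 measured early response targets was 0.19, against 0.17 for all genes.

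E2-BSA against BSA had the same pair lower, JUNB by -1.33 ± 0.19 (SE, adjusted p = 0.0450) and LIF by -0.93 ± 0.13 (SE, adjusted p = 0.0454), and both comparisons share the BSA array. Centring each array on its median gene left the BSA against control calls in place and ended these (adjusted p of 0.0568 for JUNB and 0.0844 for LIF). Without the term for the array sets neither gene passed in either comparison (adjusted p of 0.522 to 0.607). Without control 2 or without E2-BSA 2 neither passed in either comparison (adjusted p of 0.222 to 0.613), without control 1 JUNB did not pass for BSA against control (0.0587), and without control 1 or E2-BSA 1 neither passed for E2-BSA against BSA (0.0562 to 0.0653). With a mean for each group and the replicate number as a block, LIF did not pass for BSA against control (0.0663) and neither gene passed for E2-BSA against BSA (0.0692 and 0.129). JUNB read -0.23 in E2-BSA 2, beside -0.29 in control 2.

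Ethanol against control had 3 of the 101 genes higher and 0 lower, again early response targets, all transcription factors of the immediate early class, where 0.086% of all genes were called. FOS read 2.36 in ethanol, against -0.56 in control 2 (fitted difference 3.04 ± 0.25 SE, adjusted p = 0.0103). EGR1 read 2.87 in ethanol, against -0.04 in control 2 (2.91 ± 0.17 SE, adjusted p = 0.00346), and JUNB read 1.47, against -0.29 (1.76 ± 0.19 SE, adjusted p = 0.0251). The median of the 22 targets was 0.40, against 0.02 for all genes. The BSA array, which shared the high JUNB and HBEGF, had FOS at -0.94 and EGR1 at -0.14, so the carrier and vehicle arrays did not share all of these genes. Estradiol against ethanol had 1 of the 101 lower, EGR1, at 0.08 in estradiol against 2.87 in ethanol (-2.67 ± 0.23 SE, adjusted p = 0.0378), where 0.0101% of all genes were called. This call was lost with each single duplicate array left out (adjusted p of 0.250 to 0.496), and without control 1 FOS was called in its place (-3.33, adjusted p = 0.0126). It was also lost with arrays centred on the median gene (0.0534), without the _s_at and _x_at probe sets (0.0649), with group means (0.129), after quantile normalization (0.187) and without the set term (0.533). The FOS, EGR1 and JUNB calls for ethanol were lost without control 2 (0.201 to 0.602) or without E2-BSA 2 (0.0624 to 0.277), and JUNB also without control 1 (0.0576). Without the term for the array sets none of the 3 passed (0.206 to 0.977).

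Between the array sets, 35 of the 101 pathway genes were higher and 7 lower in the set of 3, where 14.1% of all genes were higher and 10.0% lower. Among 19 genes of ligand shedding 8 were higher and 0 lower, led by ADAM10 (1.46 ± 0.13 SE), ADAM9 (1.08 ± 0.12) and TIMP3 (1.0 ± 0.19), a metalloprotease inhibitor, and including ADAM17 (0.43 ± 0.11), the main sheddase of TGFA and EREG. Their median was 0.21, against 0.07 for all genes. Among 17 inhibitors and turnover genes 7 were higher and 1 lower, with ERRFI1 (1.26 ± 0.14), which blocks the EGFR kinase, and CBLB (0.91 ± 0.11), a ubiquitin ligase, higher and HGS (-1.12 ± 0.23), a sorting protein of endosomes, lower. Among the 22 early response targets 12 were higher and 2 lower, with FOS (1.69 ± 0.20), SPRY2 (1.59 ± 0.12), a feedback inhibitor of ERK signalling, and the transcription factor MYC (1.29 ± 0.10) higher and the cytokine IL11 (-1.08 ± 0.23) lower.

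Of 14 genes of GPER and transactivation 4 were higher and 1 lower between the sets, with GPER1 itself at 0.46 ± 0.11 (SE, adjusted p = 0.0185) and the G protein subunit GNAI2 at -1.32 ± 0.37 (SE, adjusted p = 0.0361). Over all genes 14.1% were higher and 10.0% lower. Of 14 adaptors 2 were higher, EPS8 (0.95) and NCK1 (0.62), and 2 lower, PLCG1 (-0.57) and PIK3R1 (-0.47), counts near these shares. Of 7 genes of the RAS to ERK cascade 2 were higher, MAP2K1 (0.89) and ARAF (0.76), and 1 lower, HRAS (-0.55). None of the 3 other ERBB receptors or the 5 other ERBB ligands was called between the sets. Under quantile normalization the counts over the 101 genes were 30 higher and 6 lower, without control 1 they were 27 and 0, without control 2 they were 18 and 2, and without E2-BSA 2 they were 18 and 0.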

How the data were processed

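Transcripts were measured on 11 arrays in 9 groups of MDA-MB-231 cells. The authors deposited 1 table of 54675 probe sets, analysed as log2 values relative to a centre of each probe set. How the authors summarised, normalised and centred the arrays, and the log base, are not given in the sources used here. Centring shows in 51.7% of probe sets, whose lowest positive and highest negative value are equal in size within 1e-05. The number of arrays limits the precision.

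By the platform annotation 41091 probe sets had 1 gene symbol, 1801 had several, and the others had none or were controls. Those of 1 symbol were averaged into 19775 genes, with no filter. Differences came from limma 3.58.1 in R 4.3.3, with additive terms for E2-BSA, ICI, G15, BSA, ethanol, estradiol and the array set, 3 residual degrees of freedom, a trend in the prior variance (over mean centred values, not intensities), and Benjamini-Hochberg adjustment at 0.05 over all genes or all probe sets. The fit was also run on data simulated from its own additive terms, with changes placed in the BSA array. Such data cannot check whether the agents add or whether single arrays vary as the others do. The set term stands for a split seen in the data, not a labelled batch, and for the duplicates it equals the replicate number.

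The members, lists and tests were chosen with earlier results of these data known. The text names all members, up to 6 called genes per list and comparison with the largest differences, and the 5 genes most like the member with the widest range in the set of 8. ADAM17, and IRF1 and CDKN1A as examples by array, were chosen after their values were seen. Alternatives changed the set term, fit, arrays, scaling, averaging, prior and duplicates. Those on single probe sets, apart from scaling, were chosen after the data were seen.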

Additional observations from a re-analysis of the deposited data

How the results depend on the processing

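The number of members called was 0 in each treatment comparison under every alternative listed in the methods that gave a value, and between the array sets it was 2 to 3 when a duplicate array was left out. Of the alternatives for the counts of calls, 171 gave a count within 1.5 times the reported one and 9 did not, all of them for probe sets. The 1 member probe set called for BSA against control became 0 without the set term, within the set of 8 and without each duplicate array (0 to 0). For E2-BSA against BSA, centring each array on its median probe set gave 1 call, EGFR 201984_s_at (1.20), where there had been 0. Between the sets the count of called probe sets was 3 to 5 without a duplicate array. Some differences turned direction, none of them called before or after, with TGFA moving the most. Without the set term, G15 present against absent was -0.44 for TGFA (0.29 reported), and E2-BSA against estradiol was -0.0307 for HBEGF and -0.50 for TGFA (0.23 reported). The last was -0.0507 for TGFA without the _s_at and _x_at probe sets. E2-BSA present against absent was 0.0151 for EREG and 0.00063 for TGFA after quantile normalization, and 0.0408 for HBEGF and 0.0561 for TGFA with the median of probe sets. The set difference of EGFR was -0.0384 with arrays centred on the median gene, -0.0138 after quantile normalization and -0.0139 with the median of probe sets. With a duplicate array left out, it ran from -0.15 to 0.18, and the EGFR difference of E2-BSA against estradiol from -0.0043 to 0.17. The cause of these turns was not tested. Group means with the replicate number as a block changed no member's call (HBEGF 0.75, adjusted p = 0.178, for BSA against control), and since the numbers of the duplicates equal the array sets, no separate check of a pairing could be made. Without the set term or within the set of 8 the set difference has no value, and within the set of 8 neither have the estradiol comparisons. Without control 2 or without E2-BSA 2 the calls over all genes between the sets fell to 1729 and 1332 of 4772.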
